A study of Homo sapiens with 3 samples.

Results

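The genes described here encode the machinery of mitosis: the kinases and cyclins that start it, the kinetochores that tie chromosomes to the spindle, the checkpoint that watches this attachment, and the proteins that separate chromatids and cells. They are 56 genes chosen by symbol from a list of G2/M, kinetochore, spindle and condensin genes that leaves out genes with a kinesin name. CENPE, which is on the list under its centromere name, is itself a kinesin motor. All 56 were found among the 25270 gene symbols listed, and all 56 were among the 12210 genes with a mean of at least 1 FPKM (fragments per kilobase of transcript, scaled to the mapped fragments of the library) over the libraries.

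RNA was sequenced from untreated parental HepG2 cells, a human hepatocellular carcinoma line, and from HepG2/metR cells, labelled as HepG2 kept under metformin for over 5 months and used as a hyper-glycolytic model. The third sample was HepG2/metR cells treated for 24 h with oxamate at 40 mM, which blocks lactate dehydrogenase and so lowers lactate. Each condition had 1 library (n = 1), so no value has an error, no difference has a replicate check and no p-value is given. "Higher" and "lower" therefore describe these 3 libraries, and whether HepG2/metR is 1 clone or a mixed population is not stated in the sources used here.

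The libraries differ in more than the labels name. Of 10 hepatocyte marker genes, 10 reached 1 FPKM in the parental library and 2 did in both HepG2/metR libraries (SERPINA1 and FGB), and their summed level was 32040 FPKM in parental cells, 14.0 in HepG2/metR and 11.2 after oxamate. The liver identity that the label gives was thus absent at the RNA level from both HepG2/metR libraries, apart from low SERPINA1 and FGB. Of 7 fibroblast, 5 leukocyte and 4 endothelial markers, 3, 1 and 0 reached 1 FPKM in HepG2/metR, and 2, 3 and 0 in parental cells. Their summed levels in parental, HepG2/metR and oxamate-treated cells were 5.30, 61.0 and 63.7 FPKM for fibroblast markers, most of it THY1 in both HepG2/metR libraries (0.0374, 53.3 and 48.5), and 3453, 43.7 and 31.8 for leukocyte markers, most of it LYZ in parental cells (3415, 0 and 0.230) and otherwise CD68 (35.7, 43.0 and 31.0). The leukocyte marker PTPRC stayed at or under 0.0430 FPKM. The 8 genes kept on chromosome Y had a median difference of -3.96 on the log2(FPKM + 1) scale between HepG2/metR and parental cells. Whether both cultures share an origin cannot be settled from these files, so the effect of metformin and any other difference between the cultures cannot be told apart in that comparison. The part of this difference between the cultures in any mitotic gene's value was not tested. The smallest listed values put the depth of HepG2/metR at 1.21 and that of the oxamate-treated sample at 1.24 relative to the parental library, while the depth in reads is unknown.

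Cells enter mitosis when CDK1, bound to A- and B-type cyclins, is switched on by CDC25 phosphatases. Kinetochores are then built on centromeres that carry the histone variant CENPA, and kinetochores without microtubules hold back CDC20, the activator of the ubiquitin ligase APC/C, until every chromosome is attached. APC/C then marks securin and B-type cyclins for destruction, separase cuts cohesin, and the cell divides. The mRNAs of these genes are known to peak late in the cell cycle, when B-MYB and FOXM1 act on their promoters through a sequence called the cell cycle homology region (CHR), often beside CCAAT boxes bound by NF-Y, while E2F sites serve in addition in some of them. In bulk RNA, a larger share of cells in G2 and mitosis and more mRNA per such cell cannot be told apart.

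Promoters are shown for the 5 genes that rank highest by the smaller of their rise in HepG2/metR and their fall with oxamate. These are CDC20, CDCA3, SPC25, ZWINT and AURKB, of which SPC25, ZWINT and AURKB were under 2-fold higher in HepG2/metR. The promoter of PLK1, the gene that was lowest in HepG2/metR relative to parental cells, is shown as well. Each run holds the 250 bases before the RefSeq start (GRCh38.p14, not the hg19 build of the study) in the direction of the gene, and capitals mark matches to the motifs described next. The positions are chr1:43358731-43358980 (plus strand) for CDC20, chr12:6851287-6851536 (minus) for CDCA3, chr2:168890431-168890680 (minus) for SPC25, chr10:56361260-56361509 (minus) for ZWINT, chr17:8210226-8210475 (minus) for AURKB and chr16:23678639-23678888 (plus) for PLK1.
CDC20: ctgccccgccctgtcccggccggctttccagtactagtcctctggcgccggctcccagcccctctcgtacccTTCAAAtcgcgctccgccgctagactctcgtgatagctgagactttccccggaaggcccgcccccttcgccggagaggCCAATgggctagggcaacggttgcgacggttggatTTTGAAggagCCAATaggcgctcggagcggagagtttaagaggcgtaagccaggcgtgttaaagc
CDCA3: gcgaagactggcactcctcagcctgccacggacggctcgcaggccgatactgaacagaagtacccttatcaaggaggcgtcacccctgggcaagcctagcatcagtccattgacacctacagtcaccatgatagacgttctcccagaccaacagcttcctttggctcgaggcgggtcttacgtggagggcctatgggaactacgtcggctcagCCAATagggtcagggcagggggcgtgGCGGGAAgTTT
SPC25: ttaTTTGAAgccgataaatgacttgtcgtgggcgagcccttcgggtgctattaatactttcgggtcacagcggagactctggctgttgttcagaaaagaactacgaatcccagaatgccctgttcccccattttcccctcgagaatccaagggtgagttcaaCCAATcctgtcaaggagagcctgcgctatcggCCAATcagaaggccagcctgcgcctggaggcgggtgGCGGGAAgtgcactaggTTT
ZWINT: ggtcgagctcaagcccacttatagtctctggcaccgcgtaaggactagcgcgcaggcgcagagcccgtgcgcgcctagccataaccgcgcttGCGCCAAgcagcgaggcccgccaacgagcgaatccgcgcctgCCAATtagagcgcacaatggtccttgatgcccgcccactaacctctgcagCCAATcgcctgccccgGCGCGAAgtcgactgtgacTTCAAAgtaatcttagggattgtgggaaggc
AURKB: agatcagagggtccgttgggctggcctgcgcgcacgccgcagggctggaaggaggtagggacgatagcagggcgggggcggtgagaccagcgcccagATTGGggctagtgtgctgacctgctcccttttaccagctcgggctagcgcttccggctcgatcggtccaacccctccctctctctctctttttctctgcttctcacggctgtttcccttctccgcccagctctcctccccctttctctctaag
PLK1: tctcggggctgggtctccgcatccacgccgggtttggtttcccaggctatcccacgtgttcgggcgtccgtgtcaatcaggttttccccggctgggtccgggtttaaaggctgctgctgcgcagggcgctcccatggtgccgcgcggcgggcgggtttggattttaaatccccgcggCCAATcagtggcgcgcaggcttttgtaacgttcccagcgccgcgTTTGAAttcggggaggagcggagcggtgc

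Motifs were searched on both strands in the 250 bases before and 50 bases after the first start that RefSeq lists. The CHR was written as TTTGAA or TTCGAA, the NF-Y box as CCAAT, and the E2F site as TTCCCGC or TTGGCGC or TTCGCGC or TTGCCGC, none of which contains another. The RefSeq table held 48 of the 56 genes, and 34 of these 48 promoters (70.8%) had a CHR match, against 16.6% of all 27305 promoters. A CCAAT box was found in 33 of 48 (68.8%, against 35.7% of all), at least 2 boxes in 21 of 48 (43.8%, against 11.3%), and CHR and CCAAT together in 26 of 48 (54.2%, against 6.58%). An E2F match stood in 20 of 48 (41.7%, against 13.1% of all). The CHR matches lay close to the start, with 30 of the 48 promoters (62.5%) holding one that begins within 50 bases of it, against 5.05% of all promoters.

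In CDC20 a CHR at position -65, counted backwards from the start, has CCAAT at -100 before it and CCAAT at -55 after it, and a further CHR stands at -178 on the opposite strand. The bases just after this start occurred in 0 CDC20 transcripts of GENCODE release 29, so the CDC20 positions are less certain. For each other promoter shown they occurred in at least 1. CDCA3 and SPC25 each have an E2F match shortly before a CHR that begins at -3 and runs across the start, so that the last 3 capitals of their runs are its first bases. ZWINT has the CHR at -31 on the opposite strand and CCAAT boxes at -66 and -116. AURKB has a CCAAT on the opposite strand at -153, and neither CHR nor E2F letters occurred in its window. PLK1 has CCAAT at -73 and a CHR at -29, a CCAAT upstream of a CHR as in CDC20, CDCA3, SPC25 and ZWINT. Genes with a CHR match (34) had a median difference of 0.86 in HepG2/metR and -0.52 with oxamate on the log2(FPKM + 1) scale, and genes without one (14) of 0.77 and -0.54. For CCAAT the medians were 0.86 and -0.53 with a match (33 genes) and 0.81 and -0.54 without (15 genes). For E2F they were 0.86 and -0.53 with a match (20 genes) and 0.85 and -0.53 without (28 genes). Letters in a window are a description and not a measured site.

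All 56 genes were lower in oxamate-treated than in untreated HepG2/metR cells, and in HepG2/metR 48 of the 56 exceeded their parental level. Over the 12210 genes kept, 45.6% were lower with oxamate by any amount and 50.6% were higher in HepG2/metR by any amount. Differences are given on the log2(FPKM + 1) scale, on which 1 is 2-fold and 0.58 is 1.5-fold for genes well above 1 FPKM. The median difference of the 56 genes was 0.82 between HepG2/metR and parental cells, against 0.02 over all genes kept, with single genes between -1.02 (PLK1) and 1.96 (CEP55). With oxamate the median was -0.53, again against 0.02 over all genes kept, and single genes lay between -1.28 (AURKB) and -0.14 (ASPM).

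All counts past a threshold, here and for each group of genes, are on the log2(FPKM + 1) scale, while a fold printed with decimals is a ratio of FPKM. At the thresholds of the study, 17 of the 56 genes (30.4%) exceeded their parental level at least 2-fold in HepG2/metR, against 16.6% of all genes kept. PLK1 was the 1 gene at least 2-fold lower, where the share over all genes was 17.6%. With oxamate 20 of the 56 (35.7%) were at least 1.5-fold lower, against 3.82% of all genes, and 0 were at least 1.5-fold higher, against 4.30%. AURKB, CDC20 and CENPM were at least 2-fold lower with oxamate, which 0.524% of all genes were, and CDCA3 missed this line by under 0.05. Both thresholds were passed by 6 genes, CDC20, PTTG1, CDCA3, NDC80, NUF2 and STMN1, against 0.958% of all genes kept, where the comparisons share the HepG2/metR library. These counts depend on scaling. With every library set to the same total FPKM, which moved the median of all genes with oxamate to 0.17, 54 of the 56 genes were lower with oxamate (all but ASPM and CKAP5), 8 of them by 1.5-fold, and 3 passed both thresholds. With upper-quartile scaling, which moved the median of all genes in HepG2/metR to 0.17, 28 were at least 2-fold higher there and 10 passed both. How many of all genes passed these lines under either scaling was not computed. Less the median of all genes, the median of the 56 was 0.83 in HepG2/metR with upper-quartile scaling, against 0.81 unscaled. With the same total it was -0.52 with oxamate, against -0.55.

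Many genes stood near these lines. NDC80 and PRC1 passed 2-fold by under 0.05, and TTK, DLGAP5 and CCNB1 missed it by under 0.05. By the ratio of FPKM itself TTK (2.09-fold) and DLGAP5 (2.02-fold) passed as well, which makes 19 genes, and with oxamate CDCA3 (2.03-fold) passed 2-fold as the fourth gene, while the count past 1.5-fold was 20 either way. For the 1.5-fold line with oxamate, 4 genes passed and 6 missed it by under 0.05. NDC80, NUF2, STMN1, KNSTRN, NUSAP1 and PRC1 also belong to the microtubule genes that the study picked on these same libraries. The differences of these 6 genes are therefore no independent evidence. Among them KNSTRN, NUSAP1 and PRC1 missed the 1.5-fold line with oxamate here, at 1.46-, 1.45- and 1.495-fold by FPKM. The whole list was chosen with earlier results of these data known, so the remaining genes are no independent evidence either. Without the 6 microtubule genes, 11 of 50 (22.0%) passed 2-fold in HepG2/metR, against 30.4% of the full list and 16.6% of all genes kept. With oxamate 17 of 50 passed 1.5-fold, against 3.82% of all genes, and 3 of 50 passed both, against 0.958%.

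Among the genes of mitotic entry, the B-type cyclins and their kinase were higher in HepG2/metR, while PLK1 and CCNA2 were lower. CCNB1, which encodes cyclin B1, was at 91.1 FPKM in parental cells, 179 in HepG2/metR and 124 after oxamate. CDK1, the kinase that it activates, was at 67.3, 123 and 95.4 FPKM in the same order, and CCNB2 (cyclin B2) at 49.5, 76.9 and 53.4. These 3 genes were highest in HepG2/metR, and after oxamate were still above the parental level.

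PLK1, a kinase that promotes mitotic entry and centrosome maturation, went the other way, with 102 FPKM in parental cells, 49.9 in HepG2/metR and 30.8 after oxamate. CCNA2 (cyclin A2), which acts from S phase on, was at 51.6, 36.7 and 25.5 FPKM. The ratio of CCNB1 to CCNA2 levels was 1.76 in parental cells, 4.87 in HepG2/metR and 4.84 after oxamate, so it hardly differed between the HepG2/metR libraries. AURKA, the centrosomal Aurora kinase, was at 87.1, 78.9 and 58.7 FPKM, a difference of -0.14 and then -0.42.

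The phosphatase gene CDC25C was at 9.69, 17.1 and 10.5 FPKM, and its relative CDC25B at 24.97, 27.5 and 24.0, the smallest difference with oxamate in this group (-0.19). FOXM1, the transcription factor that drives many of these genes in G2, was at 26.3, 45.2 and 33.7 FPKM. Of the 9 entry genes, 6 were higher in HepG2/metR, 0 of them by 2-fold, and 2 of 9 (PLK1 and CDC25C) were at least 1.5-fold lower with oxamate. Over all genes kept these shares were 50.6%, 16.6% and 3.82%.

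Checkpoint genes were divided in HepG2/metR, with MAD2L1 lower and the other 4 higher, where 50.6% of all genes were higher. Of the 5 genes, 0 were at least 2-fold higher there, against 16.6% of all genes. Only MAD2L1 was at least 1.5-fold lower with oxamate, against 3.82% of all genes. MAD2L1, whose protein is part of the inhibitor of CDC20, was at 91.8 FPKM in parental cells, 60.1 in HepG2/metR and 33.8 after oxamate, the lowest of the group relative to parental in both libraries. Its partner in that inhibitor, BUB1B (BUBR1), was at 26.8, 47.6 and 37.0 FPKM, so the ratio of MAD2L1 to BUB1B levels was 3.43, 1.26 and 0.914. TTK, the kinase MPS1 that starts checkpoint signalling, was at 10.9, 22.7 and 16.97 FPKM, just short of 2-fold higher in HepG2/metR on the log2(FPKM + 1) scale but 2.09-fold higher by FPKM. BUB1 was at 28.4, 44.5 and 30.4, and BUB3, which carries both BUB proteins to kinetochores, at 84.6, 120 and 102 FPKM, with the smallest difference with oxamate of the 5 genes (-0.23).

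The genes around APC/C and chromatid separation held 3 of the 6 genes that passed both thresholds, which 0.958% of all genes kept did. CDC20, which activates APC/C and is the target of the checkpoint, was at 61.6 FPKM in parental cells, 156 in HepG2/metR and 76.3 after oxamate, that is 2.54-fold higher and then 2.05-fold lower. CDCA3, a mitotic entry factor that is itself destroyed by APC/C, was at 25.7, 54.8 and 27.0 FPKM, with the oxamate-treated level 1.05 times the parental. PTTG1 encodes securin, the inhibitor of separase, and was at 102, 312 and 185 FPKM. Its near-identical relatives were listed at no more than 0.289 FPKM (PTTG2) and at 0 (PTTG3P) in every library, though reads shared among them cannot be told apart.

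ESPL1, separase itself, was also at least 2-fold higher in HepG2/metR, at 5.30, 17.9 and 13.6 FPKM, with a difference of -0.37 with oxamate. UBE2C, the enzyme that hands ubiquitin to APC/C substrates, was at 117, 173 and 128 FPKM. CDCA5 (sororin), which protects cohesin until anaphase, was nearly level between parental and HepG2/metR cells at 34.2 and 37.1 FPKM and lower with oxamate at 24.8. All 6 genes of this group were higher in HepG2/metR, 4 of them by 2-fold or more, against 50.6% and 16.6% of all genes. Of the 6, 3 were at least 1.5-fold lower with oxamate, against 3.82% of all genes. A group of 6 genes is small to set against these shares.

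The chromosomal passenger complex showed the most unequal differences with oxamate among its subunits. AURKB, its kinase, was at 44.8 FPKM in parental cells, 77.8 in HepG2/metR and 31.5 after oxamate, 2.47-fold lower with oxamate and the largest such difference of the 56 genes. INCENP, the scaffold that binds and activates AURKB, was at 13.54, 26.5 and 22.9 FPKM, a difference of only -0.20. The ratio of AURKB to INCENP levels was therefore 3.31, 2.93 and 1.37. The targeting subunits lay between, with BIRC5 (survivin) at 76.9, 99.4 and 60.1 FPKM and CDCA8 (borealin) at 30, 54.7 and 33.3.

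At the outer kinetochore, the subunits of the NDC80 complex, which grips microtubules, differed in direction. NDC80 was at 16.6 FPKM in parental cells, 34.4 in HepG2/metR and 19.7 after oxamate, and its partner NUF2 at 20.2, 50.7 and 32.6. Of the subunits that face the centromere, SPC25 was at 31.0, 56.3 and 31.7 FPKM. SPC24 alone of the complex was lower in HepG2/metR, at 19.1, 15.7 and 12.2 FPKM, and the ratio of SPC25 to SPC24 levels was 1.62, 3.58 and 2.60.

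ZWINT, which links the checkpoint to the kinetochore scaffold, was at 69.9, 128 and 72.6 FPKM and KNSTRN, an astrin partner, at 26.1, 65.3 and 44.6. The Ska complex genes SKA3 and SKA1 were at 8.30, 15.8 and 10.6 and at 12.6, 13.4 and 9.24 FPKM, so SKA1 was nearly level between parental and HepG2/metR cells. Of the 8 outer kinetochore genes, 7 were higher in HepG2/metR, 3 by 2-fold, and 4 were at least 1.5-fold lower with oxamate. The matching shares of all genes were 50.6%, 16.6% and 3.82%.

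Centromere genes ranged widely in HepG2/metR, from CENPI among the highest to CENPW and CENPN below the parental level. CENPI, of the constitutive centromere network, was the lowest of the 56 genes in parental cells at 3.51 FPKM and was at 13.7 in HepG2/metR and 9.13 after oxamate, a difference of 1.70. CENPM and CENPN belong to the same network, and CENPM was at 21.5, 33.2 and 15.8 FPKM, 2.10-fold lower with oxamate, while CENPN was at 24.7, 20.7 and 14.9. CENPW, which pairs with CENPT, was at 36.3, 28.2 and 16.6 FPKM and so lower at each step.

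CENPA, the centromeric histone, was at 21.5, 25.2 and 18.3 FPKM. The large proteins of the fibrous corona that form late were higher in HepG2/metR. CENPF was at 16.2, 36.8 and 29.6 FPKM and the motor CENPE at 6.28, 10.1 and 8.48. Their differences with oxamate were -0.31 and -0.23. Relative to the median of all genes with a longest transcript of 4000 bases or more, they were -0.43 and -0.35. Of the 7 genes, 5 were higher in HepG2/metR, 2 by 2-fold, and 2 (CENPM and CENPW) were at least 1.5-fold lower with oxamate. Among all genes kept these shares were 50.6%, 16.6% and 3.82%, and 7 genes are few to set against them.

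All 10 spindle genes were higher in HepG2/metR, 5 of them by 2-fold or more on the log2(FPKM + 1) scale and DLGAP5 in addition by FPKM. On that scale 50.6% of all genes were higher and 16.6% were at least 2-fold higher. STMN1 (stathmin), which binds free tubulin and destabilizes microtubules, was the highest of the 56 genes in each library, at 144 FPKM in parental cells, 496 in HepG2/metR and 311 after oxamate. NUSAP1, a microtubule bundling protein, was at 35.3, 117 and 80.5 FPKM and CKAP2 at 22.6, 70.5 and 60.7. CKAP2 was little lower with oxamate, with a difference of -0.21, and so were the long genes CKAP5 (33.9, 54.3 and 48.8 FPKM; -0.15) and ASPM (7.23, 16.8 and 15.1 FPKM; -0.14).

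TACC3 and TPX2, which with AURKA build and stabilize spindle microtubules, differed least between parental and HepG2/metR cells in this group. TACC3 was at 36.6, 39.7 and 25.9 FPKM and TPX2 at 87.4, 115 and 77.0, so both were below the parental level with oxamate. PRC1, which crosslinks the midzone, was at 44.7, 91.0 and 60.9 FPKM, HMMR at 22.4, 42.4 and 26.3, and DLGAP5, a stabilizer of kinetochore fibres, at 23.9, 48.1 and 35.7. With oxamate 3 of the 10, STMN1, HMMR and TACC3, were at least 1.5-fold lower, against 3.82% of all genes.

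The cytokinesis genes had the highest median in HepG2/metR (1.67 over 3 genes). With oxamate 0 of the 3 was 1.5-fold lower, against 3.82% of all genes. CEP55, which recruits the abscission machinery to the midbody, was at 13.48 FPKM in parental cells, 55.5 in HepG2/metR and 42.5 after oxamate, 4.12-fold higher in HepG2/metR and the largest such difference of the 56. ANLN (anillin), the scaffold of the contractile ring, was at 30.3, 98.8 and 76.2 FPKM and ECT2, which activates RhoA there, at 24.0, 44.2 and 34.5.

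Of the chromosome structure genes, the condensin subunits differed from each other. NCAPG was at 16.8, 25.3 and 16.2 FPKM, but NCAPH was level between parental and HepG2/metR cells at 11.8 and 11.4 and lower with oxamate at 7.06. TOP2A, the topoisomerase that untangles chromatids, was at 106, 175 and 137 FPKM. MKI67, which coats mitotic chromosomes and gives the proliferation marker Ki-67, was at 18.2, 39.3 and 28.5 FPKM.

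Across the 3 libraries the genes fell into 3 orders. In 38 of 56, HepG2/metR was highest and the oxamate-treated level lay between it and the parental level, an order that 18.7% of all genes kept had. In 10 genes (CDC25B, CDCA5, AURKB, BIRC5, SKA1, CENPA, CENPM, TPX2, TACC3 and NCAPG) HepG2/metR was again highest but the oxamate-treated level was below the parental one, as in 5.93% of all genes. In the other 8 genes (CCNA2, PLK1, AURKA, MAD2L1, SPC24, CENPN, CENPW and NCAPH) parental cells were highest and oxamate-treated cells lowest, as in 20.8% of all genes.

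The oxamate-treated library was at least 2-fold above the parental one for 7 genes, ESPL1, CENPI, NUSAP1, STMN1, CKAP2, ANLN and CEP55, against 18.0% of all genes kept, and at least 2-fold below it for PLK1, MAD2L1 and CENPW, against 17.6%. By the ratio of FPKM itself ASPM (2.09-fold above) and CCNA2 (0.495 of the parental level) also passed. The shares of the 56 genes on the log2(FPKM + 1) scale (12.5% and 5.36%) were below those of all genes. The median difference between oxamate-treated and parental cells was 0.25, with 38 genes higher and 18 lower.

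The difference with oxamate went with transcript length, among these genes and among all genes. Over all genes kept the median difference was -0.14 for a longest transcript under 2000 bases (2028 genes), -0.02 from 2000 to under 4000 (4441 genes) and 0.12 at 4000 or more (5031 genes). The mitotic genes had medians of -0.74 (12 genes), -0.53 (30 genes) and -0.36 (14 genes) in the same classes, and all 56 lay below the median of all genes in their own class. Spearman's rho between length and the difference with oxamate was 0.55 across the 56 genes and 0.34 across 11500 genes, where the points share the same libraries and FPKM is itself divided by length. Relative to the median of its length class, the median difference of the 56 genes was -0.51, and 19 genes were at least 1.5-fold lower. The difference in HepG2/metR showed little of this, with a rho of 0.08 across the 56 genes.

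The difference in HepG2/metR went with the chromosome. The median over all genes kept was -0.68 on chromosome 16 (514 genes) and -0.64 on chromosome 20 (322 genes), and 0.65 on the X chromosome (379 genes), while on the other chromosomes that carry these genes it lay between -0.49 and 0.38. PLK1 and CENPN lie on chromosome 16, and AURKA, CDC25B, TPX2 and UBE2C on chromosome 20. For these 6 genes the median was 0.00 and 3 were above 0, and for the other 50 it was 0.86 and 45 were above 0. CENPI, with a difference of 1.70, is the 1 gene of the list on the X chromosome.

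Taken relative to the median of its own chromosome, the median of the 56 genes was 0.72, 50 of 56 were above 0 and 18 were at least 2-fold higher. PLK1 was then at -0.34 and AURKA at 0.50. With oxamate the chromosome medians lay close to 0, at 0.08 or below in size. What sets these chromosomes apart between the cultures was not tested.

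A further 117 mitotic genes without a kinesin name, from the same complexes and pathways, were compared with the same background. Of these, 77 (65.8%) were higher in HepG2/metR by any amount and 99 (84.6%) were lower with oxamate, with medians of 0.29 and -0.28. In HepG2/metR 18 of 117 (15.4%) were at least 2-fold higher, close to the 16.6% of all genes, and with oxamate 22 of 117 (18.8%) were at least 1.5-fold lower, against 3.82% of all genes. Both thresholds were passed by 5 of 117 (4.27%), against 0.958% of all genes kept, where the comparisons share the HepG2/metR library. These were the APC/C subunit ANAPC15, the Ska subunit SKA2, the CENPA chaperone HJURP, and PSRC1 and PIMREG (listed as FAM64A).

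UBE2S, the enzyme that extends ubiquitin chains on APC/C substrates, had the largest difference in HepG2/metR, with 20.1 FPKM in parental cells, 128 in HepG2/metR and 86.3 after oxamate. CKAP2L (9.14, 43.4 and 30.8 FPKM) and SPDL1 (16.4, 69.3 and 58.5 FPKM), which brings dynein to kinetochores, followed. At the other end were HAUS4 of the augmin complex (36.4, 13.1 and 12.7 FPKM), CDC26 of APC/C (27.6, 14.8 and 15.9 FPKM) and the plus-end protein CLASP1 (12.4, 6.72 and 10.2 FPKM). The 17 APC/C genes of this list, most of which serve throughout the cycle, had medians of 0.02 and -0.18.

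With oxamate the lowest were CENPU (24.2 FPKM without and 10.5 with oxamate), the CDK1 partner CKS1B (175 and 85.3 FPKM) and MYBL2, which encodes B-MYB (35.6 and 18.8 FPKM). The highest were CLASP1 with a difference of 0.53, the gamma-tubulin complex gene TUBGCP6 with 0.48 and ANAPC2 with 0.25. MYBL2 was at 44.3 FPKM in parental cells, so like PLK1 it was lower at each step. Relative to the median of chromosome 20, where it lies, the MYBL2 difference in HepG2/metR was 0.33 instead of -0.31. PLK1 stayed negative relative to its own chromosome, at -0.34.

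Some values may hold reads of a neighbour on the opposite strand, since counting by strand is not stated in the sources used here. Exons of another listed gene covered 1631 of the 4661 exon bases of NCAPG (by LCORL, at 3.11 to 3.15 FPKM), 14.5% of CENPN (by CMC2, at 65.8, 61.4 and 40.6 FPKM) and 10.7% of CDC25C (by FAM53C, at 15.4 to 18.1 FPKM). CMC2 was above CENPN in every library, and the values of CENPN are uncertain for that reason. For the other 53 genes the shared part was 8.01% or less.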

How the data were processed

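RNA-seq values were analysed for 3 libraries, 1 each from HepG2 (parental), HepG2/metR, and HepG2/metR given oxamate. The authors deposited 1 value per gene symbol on a log2 scale, of the form log2(FPKM + 1). This unit is an inference from their range and sums. The submitters' processing notes name FastQC 0.11.5, STAR 2.5.1b, Cufflinks 2.2.1 and the build hg19, while the annotation is not given in the sources used here. No further scaling was applied.

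Differences between libraries were taken on the deposited scale, over genes whose mean FPKM reached 1. Thresholds were 2-fold for HepG2/metR against parental and 1.5-fold for oxamate. No test was made, because each group had 1 library. The depth in reads is unknown and no interval is given. The calculation was run on simulated data whose planted changes lay well past the thresholds. That run checked the arithmetic and did not cover genes near a threshold or at low levels. The genes and lists were chosen with earlier results of these data known. Genes named are those past both thresholds, the extremes of each role group and those of the opposite sign; the values of the remaining members were added after they had been seen. Transcript lengths (11500 genes) came from GENCODE release 29, chromosomes (11204 genes) and promoters from RefSeq GRCh38.p14. Alternatives were other pseudocounts, filters, scalings and thresholds. Python 3.11, numpy 2.4.6, pandas 2.3.3 and matplotlib 3.10.9 were used.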

Additional observations from a re-analysis of the deposited data

How the results depend on the processing

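No paired analysis was possible because each condition had 1 library, and for the same reason no library could be left out. The count of the 56 genes that exceeded parental cells 2-fold in HepG2/metR was 17 and went from 17 to 20 under other pseudocounts, filters and most scalings, but was 28 with upper-quartile scaling, which moved the median of all genes to 0.17, and 38 at a 1.5-fold threshold. The number at least 1.5-fold lower with oxamate was 20, and 8 when each library was scaled to the same total, which moved the median of all genes to 0.17. Relative to that shifted median 20 genes were lower by 1.5-fold. Under the same-total scaling 54 of the 56 genes were lower with oxamate at all, and under every other pseudocount, filter and scaling tried 56 were. At a 2-fold threshold 3 genes were lower with oxamate. Both thresholds were passed by 6 genes, by 10 with upper-quartile scaling, by 3 with the same total, by 1 at 2-fold in both and by 13 at 1.5-fold in both. Without the 6 genes of the microtubule term, an alternative chosen after seeing the data, 11 were higher in HepG2/metR and 3 passed both. Of the 117 further mitotic genes, 9 instead of 22 were at least 1.5-fold lower with oxamate under the same total. The median difference of the 56 genes in HepG2/metR was 0.99 with upper-quartile scaling and 0.72 relative to the own chromosome, and with oxamate -0.36 with the same total. The centring on chromosomes and length classes was also chosen after seeing the data. For the 2-fold line with oxamate the share of all genes was 0.524%. Shares of all genes were not computed for the other thresholds, scalings, filters, pseudocounts and centrings. Variation between cultures or preparations was not measured.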
